A study of Mus musculus with 3 samples.

Results

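The histone genes were taken as every gene of the count tables whose symbol starts with Hist1, Hist2, Hist3, Hist4, H2af, H3f3 or H1f. This rule found 83 of 31053 genes, of which 67 carry a Hist1 to Hist4 symbol and are called clustered here, and 16 are called replacement histones and others. The study sequenced single cells of the mouse bladder urothelium, the epithelium that lines the bladder, as 1 droplet library of Lpar6 knockout mice, 1 of Cab39l knockout mice and 1 of wild-type mice. Each library was made from cells of 15 mice that had been pooled, released from ligated bladders with trypsin, strained, and cleared of red blood cells on a Ficoll gradient. Lpar6 is the gene of a lysophosphatidic acid receptor, and Cab39l that of a scaffold for the kinase LKB1. The extent of each deletion, the cells it affects, and the age and strain of the mice are not given in the labels. Because there was 1 library per group, no difference between groups has a replicate check, no test was run and no p-value is given. All intervals are 95% intervals and cover counting error only.

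Histones are the proteins on which DNA is wound. Most copies lie in clusters, are transcribed while DNA is replicated, and give mRNAs that end just after a short stem-loop instead of in a poly(A) tail, whereas replacement histones such as H3.3 and H2A.Z are made throughout the cell cycle from ordinary polyadenylated mRNAs. Some clustered genes can also give polyadenylated mRNAs that run past the stem-loop, and these are described in differentiated cells. Linker histones, the H1 family, bind where DNA enters and leaves the nucleosome. Droplet libraries of this kind generally capture RNA by its poly(A) tail. Which RNAs of the clustered genes were captured here was not tested.

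The annotated gene models were sorted by what follows the stem-loop. The conserved histone stem-loop, with its variable bases left free, was searched on the transcript strand of the GENCODE vM21 models (GRCm38) and matched 89 of 55450 genes, 45 of them histone genes. Of the 67 clustered genes, 22 had a model that extends at least 100 bases past the stem-loop, 21 had one that ends nearer to it, and 24 had no match. Of the replacement genes, H2afx had a match, followed by 822 bases, and the other 15 had none. The stem-loops of the clustered genes on which the results turn are given below with that of H2afx, 5′ to 3′, with the searched motif in capitals.
Hist1h1e (chr13:23621775-23621804, minus strand, 1153 bases after it): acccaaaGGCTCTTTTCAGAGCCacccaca
Hist1h1d (chr13:23555780-23555809, plus strand, 4884 bases after it): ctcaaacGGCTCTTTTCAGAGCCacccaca
Hist1h1c (chr13:23739505-23739534, plus strand, 840 bases after it): tccaaaaGGCTCTTTTCAGAGCCaccactc
Hist1h4d (chr13:23581943-23581972, plus strand, 770 bases after it): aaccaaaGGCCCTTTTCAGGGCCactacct
Hist3h2a (chr11:58955165-58955194, plus strand, 1643 bases after it): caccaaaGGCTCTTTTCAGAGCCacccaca
Hist1h2ap (chr13:21833026-21833051, minus strand, 3 bases after it): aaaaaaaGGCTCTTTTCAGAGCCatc
Hist2h2aa1 (chr3:96246025-96246054, plus strand, 35 bases after it): ctaaaaaGGCTCTTTTCAGAGCCacccact
H2afx (chr9:44335233-44335262, plus strand, 822 bases after it): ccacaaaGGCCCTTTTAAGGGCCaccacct
The counts of bases after the stem-loop run from the end of the capital letters to the model's end. Hist1h1e, Hist1h1d, Hist1h1c, Hist3h2a, Hist1h2ap and Hist2h2aa1 shared the same stem-loop letters, while Hist1h4d and H2afx each had another version.

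The promoters of a linker histone pair and of a replacement gene show how the start sites differ. RefSeq (GRCm38.p6) promoters, 250 bases before to 50 after the start, were found for 71 members and searched on both strands for boxes of known histone promoters. These were the CCAAT box, the TATA box, spelled TATAAA, and the H1 box, spelled AAACACA. No motif overlapped another in the promoters shown, where capitals mark these letters or their reverse complement.
Hist1h1e (chr13:23622509-23622808, minus strand): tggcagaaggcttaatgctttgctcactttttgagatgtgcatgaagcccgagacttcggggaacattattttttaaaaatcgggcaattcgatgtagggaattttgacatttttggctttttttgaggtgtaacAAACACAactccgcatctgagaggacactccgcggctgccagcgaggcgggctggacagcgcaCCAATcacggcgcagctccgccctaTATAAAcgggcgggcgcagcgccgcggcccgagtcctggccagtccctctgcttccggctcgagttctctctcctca
Hist1h1c (chr13:23738557-23738856, plus strand): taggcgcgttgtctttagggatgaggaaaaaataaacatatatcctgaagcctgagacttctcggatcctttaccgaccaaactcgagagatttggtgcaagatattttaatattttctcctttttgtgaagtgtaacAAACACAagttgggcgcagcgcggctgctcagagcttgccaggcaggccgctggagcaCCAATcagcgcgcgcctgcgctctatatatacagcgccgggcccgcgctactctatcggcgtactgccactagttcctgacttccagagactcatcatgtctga
H2afj (chr6:136807998-136808297, plus strand): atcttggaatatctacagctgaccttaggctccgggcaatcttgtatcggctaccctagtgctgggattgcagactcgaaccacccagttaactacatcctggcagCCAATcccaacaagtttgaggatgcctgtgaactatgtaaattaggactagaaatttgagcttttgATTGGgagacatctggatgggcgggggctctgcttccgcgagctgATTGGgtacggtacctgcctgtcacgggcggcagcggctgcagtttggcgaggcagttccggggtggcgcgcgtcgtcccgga
CCAAT was found in 51 of 60 clustered promoters (85%) and 8 of 11 replacement promoters, against 37.4% of all 32851 promoters. TATAAA was found in 34 of 60 clustered promoters (56.7%) and 0 of 11 replacement promoters, against 13.6% of all. AAACACA was found in 4 of 5 clustered H1 promoters and in 7.18% of all. These matches describe the letters of the windows and are not binding sites.

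Many clustered copies are near-identical, so their counts are uncertain. In 38 of the 67 clustered genes, at least 50% of the 50-base words in the last 400 bases also occur in another annotated gene, against 0 of the 16 replacement genes. The labels do not say which end of the RNA was read, and these shares bear on the counts only where it was the 3′ end. For Hist2h2aa1, Hist1h2ap, Hist2h3c1 and Hist1h1e this share was 100%. For Hist1h1e the sharing genes are Hist1h2be, whose model overlaps it on the same strand, and Gm11398. The last 400 bases of Hist1h1c, Hist1h1d, Hist1h4d and Hist3h2a shared 0% with any other gene, and those of Hist1h2bc, whose model spans 2 exons and has no stem-loop match, shared 2.28%. H3f3aos is not a histone gene but an antisense RNA at the start of H3f3a, and reads of such a pair can be told apart only when strand is used in counting.

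Urothelial cells were barcodes with at least 5000 UMIs (unique molecular identifiers, which count captured RNA molecules), at most 20% mitochondrial UMIs and at least 0.2% of UMIs in the uroplakins Upk1a, Upk1b, Upk2 and Upk3a. This gave 4834 cells in the Lpar6 knockout library (Lpar6 KO), 5466 in the Cab39l knockout library (Cab39l KO) and 3176 in the wild-type library, with 128620816, 159977320 and 78491895 UMIs. Lpar6 had 0 CPM (UMI counts scaled to 1000000 UMIs) in Lpar6 KO urothelial cells, against 13.8 CPM in wild type, and Cab39l had 31.7 CPM in Cab39l KO, against 112 CPM in wild type. The libraries stand apart in quality measures. The median mitochondrial share was 6.27% in Lpar6 KO, 6.17% in Cab39l KO and 9.02% in wild type, and the nuclear RNA Malat1 had 11136, 8957 and 21723 CPM in that order. The median of all genes tested lay at a log2 CPM ratio of −0.40 for Lpar6 KO over wild type and −0.39 for Cab39l KO over wild type. Ratios are therefore also given relative to this median gene, and a member is said to be past the fold when it was at least 1.5-fold apart on that relative scale. Any 2 libraries shared 16 to 19 barcodes.

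In urothelial cells the clustered histone RNAs together were lower in each knockout library than in the wild-type one, while replacement histone RNAs were slightly higher. Clustered genes summed to 106 CPM (104 to 108) in Lpar6 KO and 98.6 CPM (97.1 to 100.1) in Cab39l KO, against 203 CPM (200.2 to 207) in wild type. The log2 CPM ratio was −0.94 for Lpar6 KO over wild type (1.92-fold lower) and −1.04 for Cab39l KO over wild type (2.06-fold lower). Relative to the median gene these ratios were −0.54 and −0.65. Replacement genes summed to 3411 CPM in Lpar6 KO and 3439 CPM in Cab39l KO, against 3147 CPM in wild type, which gave log2 CPM ratios of 0.12 and 0.13. Clustered genes thus made up 3.01% of all histone UMIs in Lpar6 KO and 2.79% in Cab39l KO, against 6.07% in wild type. The knockouts lay close to each other, with a clustered log2 CPM ratio of 0.10 for Lpar6 KO over Cab39l KO. On a scale per transcript length, the clustered sum was 85.6 CPM per kb in Lpar6 KO and 82.9 in Cab39l KO, against 164 in wild type, and the replacement sum was 1652, 1655 and 1489 CPM per kb in that order.

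A small number of genes carried the clustered sum. Hist1h1e, Hist1h2bc and Hist1h4d were singled out after their values were seen. Without these 3 genes the clustered sum was 46.4 CPM in Lpar6 KO and 51.4 CPM in Cab39l KO, against 68.6 CPM in wild type, with log2 CPM ratios of −0.56 and −0.42. Relative to the median gene those ratios were −0.16 and −0.03, so the sum of the other 64 clustered genes lay near the median of all genes. That sum is weighted towards the genes with the most UMIs, among them Hist3h2a, which lay above the median gene. Gene by gene, with the 3 genes counted, 19 of 23 clustered genes tested lay below the median gene in Lpar6 KO, and 19 of 24 in Cab39l KO. The sums were also split by gene model. Genes with models that extend past the stem-loop summed to 58.8 CPM in Lpar6 KO and 50.8 CPM in Cab39l KO, against 108 CPM in wild type (log2 CPM ratios of −0.88 and −1.08). Those that end near it summed to 5.21, 7.37 and 9.03 CPM, with ratios of −0.79 and −0.29, and the second was 0.10 relative to the median gene. Genes with no match, in which Hist1h2bc dominated, summed to 41.9 CPM in Lpar6 KO and 40.4 CPM in Cab39l KO, against 86.5 CPM in wild type.

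Of the 83 members, 34 had at least 100 UMIs over the urothelial cells of the 3 libraries, 2 had 50 to 99, 34 had 1 to 49, and 13 had none in urothelial or immune cells. All 34 members with 1 to 49 UMIs were clustered genes. Genes known from germ cells were among those with none, including H1foo of oocytes and H1fnt, Hist1h1t, Hist1h2ba and Hist1h2aa of testis. With 0 counts, the level was at most 0.0233 CPM in Lpar6 KO, 0.0188 CPM in Cab39l KO and 0.0382 CPM in wild type, which is the level of 3 UMIs. In Lpar6 KO over wild type, 34 members had at least the 50 UMIs required, of which 12 were past the fold on the lower side (35.3%) and 6 on the higher side (17.6%). Of all 12926 genes tested there, 8.01% were past it on the lower side and 14.3% on the higher side. In Cab39l KO over wild type, 35 members were tested, with 14 past the fold on the lower side (40%) and 7 on the higher side (20%), against 9.29% and 13.2% of 13052 genes. Without centring on the median gene, 35.6% of all genes were past the fold on the lower side and 2.83% on the higher side for Lpar6 KO, and 19 members were on the lower side and 0 on the higher side. For Cab39l KO without centring, 16 members were on the lower side and 2 on the higher side, against 35.9% and 1.95% of all genes. The 2 classes lay on opposite sides of the median gene. Among 23 clustered genes tested in Lpar6 KO over wild type, 11 were lower and 2 higher past the fold, with a median of −0.48, and among 24 in Cab39l KO over wild type, 13 were lower and 2 higher, with a median of −0.65. Among the 11 replacement genes, 1 was lower and 4 were higher in Lpar6 KO (median 0.42), and 1 was lower and 5 were higher in Cab39l KO (median 0.52). The lower one in both knockouts was the antisense RNA H3f3aos, which is not a histone gene. Between the knockouts, 4 of 34 members were lower and 4 higher in Lpar6 KO than in Cab39l KO past the fold (11.8% each), against 3.43% and 3.44% of all genes.

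**Figure D1:**
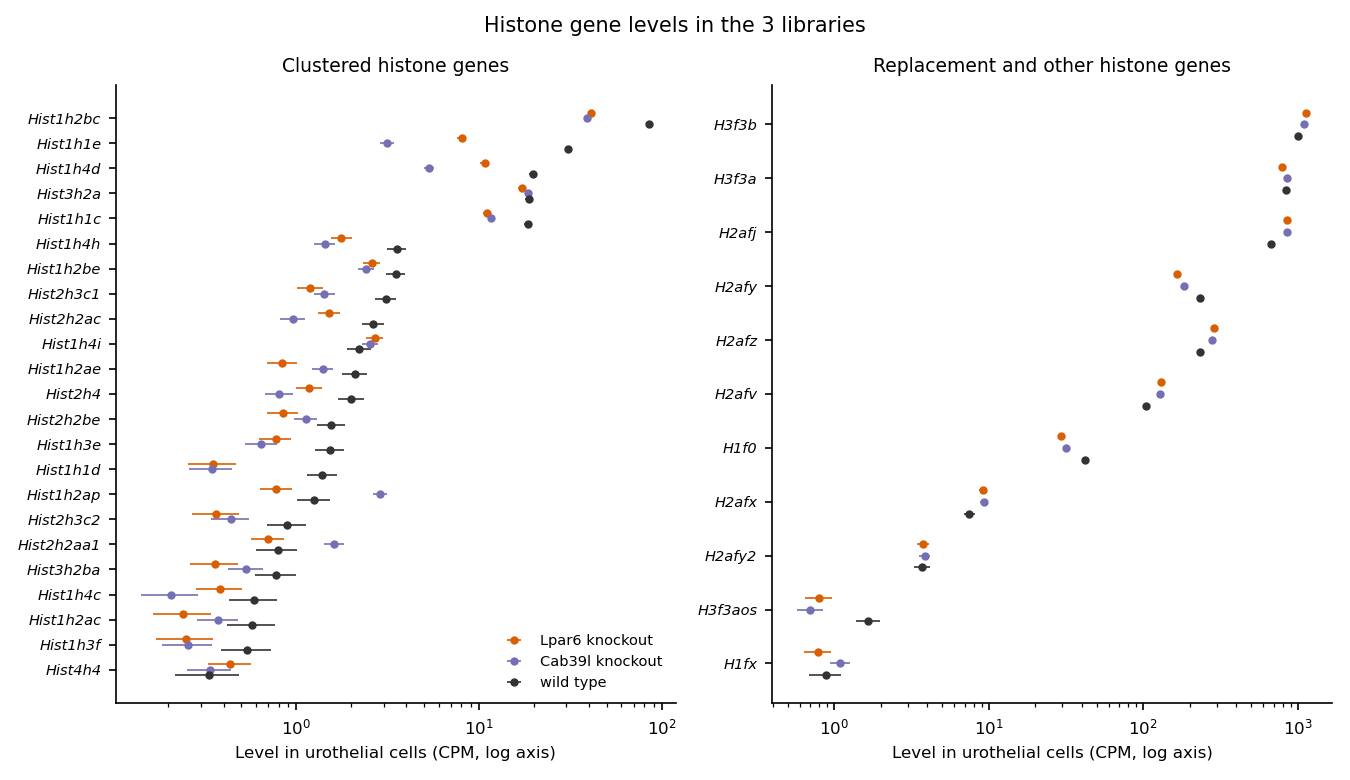
Level of each of the 34 histone genes with at least 100 UMIs, in CPM on a log axis, in urothelial cells of the Lpar6 knockout (orange), Cab39l knockout (purple) and wild-type (black) libraries, with clustered genes left and replacement genes and others right; bars are 95% Poisson intervals. Clustered genes lie below 100 CPM, and Hist1h1e is at 8.02 CPM in Lpar6 knockout and 3.13 CPM in Cab39l knockout, against 30.6 CPM in wild type.

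Of the linker histone genes of the clusters, Hist1h1e and Hist1h1d were lower past the fold in both knockouts and Hist1h1c in neither. Hist1h1e, which encodes a widely expressed H1, had 1031 UMIs (8.02 CPM) in Lpar6 KO and 500 UMIs (3.13 CPM) in Cab39l KO, against 2400 UMIs (30.6 CPM) in wild type. The wild-type level was the highest, and the knockouts also differed from each other. Relative to the median gene, its log2 ratio was −1.53 (−1.64 to −1.42) for Lpar6 KO over wild type, −2.90 (−3.04 to −2.76) for Cab39l KO over wild type and 1.36 (1.20 to 1.52) for Lpar6 KO over Cab39l KO. No other tested member had as low a ratio in Cab39l KO over wild type. Hist1h1d, another H1 gene, had 0.350 CPM in Lpar6 KO and 0.344 CPM in Cab39l KO, against 1.39 CPM in wild type, with relative log2 ratios of −1.58 and −1.62 from 45, 55 and 109 UMIs. Hist1h1c, a further somatic H1 gene, had 11.0 CPM in Lpar6 KO and 11.7 CPM in Cab39l KO, against 18.5 CPM in wild type. Its relative ratios of −0.35 and −0.28 did not pass the fold. Hist1h2be, whose model overlaps Hist1h1e, had 2.59 CPM in Lpar6 KO and 2.41 CPM in Cab39l KO, against 3.49 CPM in wild type, so its relative ratios of −0.03 and −0.14 were far smaller than those of Hist1h1e.

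Hist1h2bc, an H2B gene, had the most UMIs of the clustered genes. It had 40.7 CPM in Lpar6 KO and 38.8 CPM in Cab39l KO, against 84.4 CPM in wild type, from 5240, 6205 and 6628 UMIs. The knockouts were close together and below wild type, with relative log2 ratios of −0.65 (−0.70 to −0.60) and −0.73 (−0.78 to −0.68). Hist3h2ba had 0.358 CPM in Lpar6 KO and 0.531 CPM in Cab39l KO, against 0.777 CPM in wild type, with relative ratios of −0.71 and −0.16.

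Clustered H2A genes did not move one way. Together they had 21.4 CPM in Lpar6 KO and 25.9 CPM in Cab39l KO, against 26.5 CPM in wild type, and their log2 ratios were −0.31 and −0.03 on the CPM scale but above 0 relative to the median gene. Hist3h2a, the one with the most UMIs, had 17.1 CPM in Lpar6 KO and 18.5 CPM in Cab39l KO, against 18.7 CPM in wild type. Its relative ratios of 0.27 and 0.37 did not pass the fold, and on the CPM scale they were −0.13 and −0.02, so its direction depended on the scaling. A pair of H2A genes was past the fold on the higher side in Cab39l KO. Hist1h2ap had 0.777 CPM in Lpar6 KO and 2.88 CPM in Cab39l KO, against 1.25 CPM in wild type, from 100, 460 and 98 UMIs. Its relative log2 ratio was 1.59 (1.28 to 1.92) for Cab39l KO over wild type and −1.88 for Lpar6 KO over Cab39l KO. Hist2h2aa1 had 0.700 CPM in Lpar6 KO and 1.61 CPM in Cab39l KO, against 0.790 CPM in wild type, with a relative ratio of 1.41 (1.02 to 1.84) for Cab39l KO over wild type. Both have models that end near the stem-loop, and both share all their words with other copies. Hist2h2ac was past the fold on the lower side in Cab39l KO, and Hist1h2ae and Hist1h2ac were so in Lpar6 KO. Hist2h2ac had 1.52 CPM in Lpar6 KO and 0.956 CPM in Cab39l KO, against 2.62 CPM in wild type (relative ratios −0.39 and −1.06). Hist1h2ae had 0.840 CPM in Lpar6 KO and 1.40 CPM in Cab39l KO, against 2.09 CPM in wild type (relative ratios −0.91 and −0.19). Hist1h2ac, from 31, 60 and 45 UMIs, had relative ratios of −0.84 and −0.23.

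Hist1h4d, an H4 gene, was past the fold on the lower side in Cab39l KO. It had 10.7 CPM in Lpar6 KO and 5.32 CPM in Cab39l KO, against 19.7 CPM in wild type. As for Hist1h1e, the lowest level was that of Cab39l KO, and the relative log2 ratios were −0.48 for Lpar6 KO over wild type, −1.50 for Cab39l KO over wild type and 1.01 for Lpar6 KO over Cab39l KO. Hist1h4h had 1.76 CPM in Lpar6 KO and 1.43 CPM in Cab39l KO, against 3.55 CPM in wild type (relative ratios −0.61 and −0.92), and Hist2h4 had 1.17, 0.806 and 2.0 CPM in that order (relative ratios −0.37 and −0.92). Hist1h4c, from 49, 33 and 46 UMIs, had relative ratios of −0.22 and −1.11. Hist1h4i and Hist4h4 were past the fold on the higher side in Lpar6 KO and did not pass it in Cab39l KO. Hist1h4i had 2.68 CPM in Lpar6 KO and 2.53 CPM in Cab39l KO, against 2.20 CPM in wild type (relative ratios 0.68 and 0.58). Hist4h4 had 56 UMIs in Lpar6 KO and 54 in Cab39l KO, against 26 in wild type, or 0.435, 0.338 and 0.331 CPM (relative ratios 0.78 and 0.40). Both calls in Lpar6 KO were lost in cells with at most 10% mitochondrial UMIs and without centring, where the log2 CPM ratios were 0.28 and 0.38. The H4 genes not named here had fewer than the 50 UMIs required.

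H3 genes of the clusters were low throughout. Hist2h3c1 had 1.19 CPM in Lpar6 KO and 1.43 CPM in Cab39l KO, against 3.08 CPM in wild type (relative ratios −0.97 and −0.72). Hist1h3e had 0.770 CPM in Lpar6 KO and 0.644 CPM in Cab39l KO, against 1.53 CPM in wild type (relative ratios −0.59 and −0.86). Hist2h3c2 and Hist1h3f, with at most 70 UMIs in any library, had relative ratios of −0.88 and −0.70 in Lpar6 KO and of −0.64 and −0.67 in Cab39l KO. All 4 of these H3 genes were past the fold in both knockouts, but not all of these calls were stable. That of Hist1h3e in Lpar6 KO lay at the threshold and held under 5 of 12 alternatives, and it was lost with TMM and with median-of-ratios scaling. Those of Hist1h3f in both knockouts and of Hist2h3c2 in Cab39l KO held under 8 of 11. Hist1h2bg, an H2B gene with 61 UMIs over the 3 libraries, had enough UMIs only for Cab39l KO over wild type (relative ratio −0.75).

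**Figure D2:**
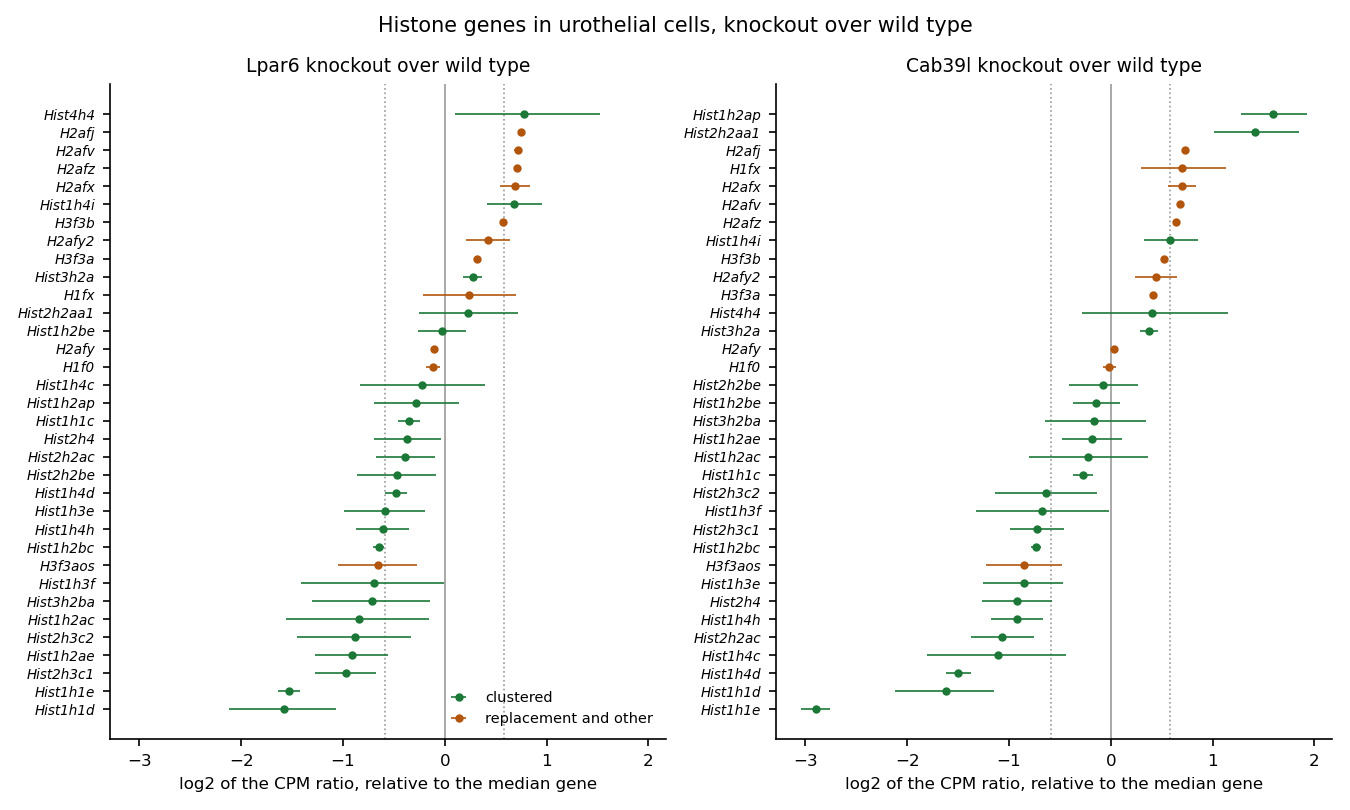
Log2 ratio of CPM relative to the median gene for the 34 histone genes with at least 100 UMIs, Lpar6 knockout over wild type left and Cab39l knockout over wild type right, with clustered genes in green and replacement genes and others in brown; bars are 95% counting intervals, the solid line marks the median gene and dotted lines a 1.5-fold difference. Hist1h1e (−1.53 and −2.90) and Hist1h1d (−1.58 and −1.62) lie lowest in both, and Hist1h2ap (1.59) lies highest in Cab39l knockout.

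The replacement genes with the most UMIs were close in level across libraries. H3f3b and H3f3a, which encode the same H3.3 protein, had 1137 and 790.02 CPM in Lpar6 KO and 1105 and 848 CPM in Cab39l KO, against 1009 and 837 CPM in wild type. Relative to the median gene, H3f3b was at 0.57 and 0.52 and H3f3a at 0.32 and 0.41, none past the fold, and on the CPM scale H3f3a in Lpar6 KO was at −0.08, so its direction depended on the scaling. H2afj, which encodes the mammalian variant H2A.J, had 856 CPM in Lpar6 KO and 851 CPM in Cab39l KO, against 673 CPM in wild type (relative ratios 0.75 and 0.73, past the fold in both). H2afz and H2afv encode the H2A.Z pair. H2afz had 289 CPM in Lpar6 KO and 277 CPM in Cab39l KO, against 234 CPM in wild type (relative ratios 0.71 and 0.64), and H2afv had 129.6, 128 and 104 CPM in that order (relative ratios 0.72 and 0.68). H2afx, whose protein is phosphorylated at DNA breaks, had 9.16 CPM in Lpar6 KO and 9.29 CPM in Cab39l KO, against 7.50 CPM in wild type (relative ratios 0.69 and 0.70). On the CPM scale the ratios of H2afj, H2afz, H2afv and H2afx were 0.21 to 0.35, short of the fold.

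Not every replacement gene was higher. H2afy, which encodes macroH2A, had 165 CPM in Lpar6 KO and 184 CPM in Cab39l KO, against 235 CPM in wild type (relative ratios −0.11 and 0.03, both below 0 on the CPM scale). H1f0, a linker histone of differentiated cells, had 29.5 CPM in Lpar6 KO and 31.7 CPM in Cab39l KO, against 42.1 CPM in wild type (relative ratios −0.11 and −0.02). H1fx had 0.785 CPM in Lpar6 KO and 1.09 CPM in Cab39l KO, against 0.879 CPM in wild type, and was past the fold in Cab39l KO (0.70). H3f3aos had 0.793 CPM in Lpar6 KO and 0.700 CPM in Cab39l KO, against 1.66 CPM in wild type (relative ratios −0.66 and −0.85), while H3f3a, which it overlaps, was not lower past the fold.

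Measures of cell quality moved with these differences. Of 7 nuclear non-coding and rRNA-like RNAs, 5 were past the fold on the lower side in Lpar6 KO and 7 in Cab39l KO, with medians of −1.12 and −1.07. Gm42418, an rRNA-like transcript, had 2033 CPM in Lpar6 KO and 1864 CPM in Cab39l KO, against 11832 CPM in wild type, and Lars2 had 46.7, 41.3 and 243 CPM in that order. Their part in the result was not tested. The clustered sum was lower than in wild type in all 11 bins of like cells (3 of mitochondrial share, 4 of depth and 4 of Malat1 share), 1.71 to 2.20-fold in Lpar6 KO and 1.89 to 2.42-fold in Cab39l KO. Hist1h1e was lower in all 11 bins too, 2.08 to 10.7-fold in Lpar6 KO and 5.41 to 15.2-fold in Cab39l KO. In the bin of cells with the least Malat1 it had 6.27 CPM in Lpar6 KO and 2.59 CPM in Cab39l KO, against 18.6 CPM in wild type. Where Malat1 was highest it had 10.4 CPM in Lpar6 KO and 4.31 CPM in Cab39l KO, against 36.2 CPM in wild type. Its level also differed with mitochondrial share within wild type, with 18.7 CPM up to 5% and 44.1 CPM from 10 to 20%, whereas Lpar6 KO had 8.99 and 7.26 CPM and Cab39l KO had 2.82 and 2.89 CPM in those bins. Hist1h2bc and Hist1h4d were lower than in wild type in all 11 bins in both knockouts as well. The replacement genes differed in this respect. H2afj was higher in all 11 bins in both knockouts, but in cells with at most 5% mitochondrial UMIs H2afz had 299 CPM in Lpar6 KO and 283 CPM in Cab39l KO, against 303 CPM in wild type. When only cells with at most 10% mitochondrial UMIs were used, 0 of 34 members were past the fold on the higher side in Lpar6 KO and 2 of 34 in Cab39l KO, against 8.08% and 6.19% of all genes. On the lower side 13 members were past it in each knockout, against 5.92% and 6.95% of all genes. Cells near a bin's edge are many: 1844 cells of Lpar6 KO, 1760 of Cab39l KO and 676 of wild type lay within 10% of a Malat1 boundary.

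**Figure D3:**
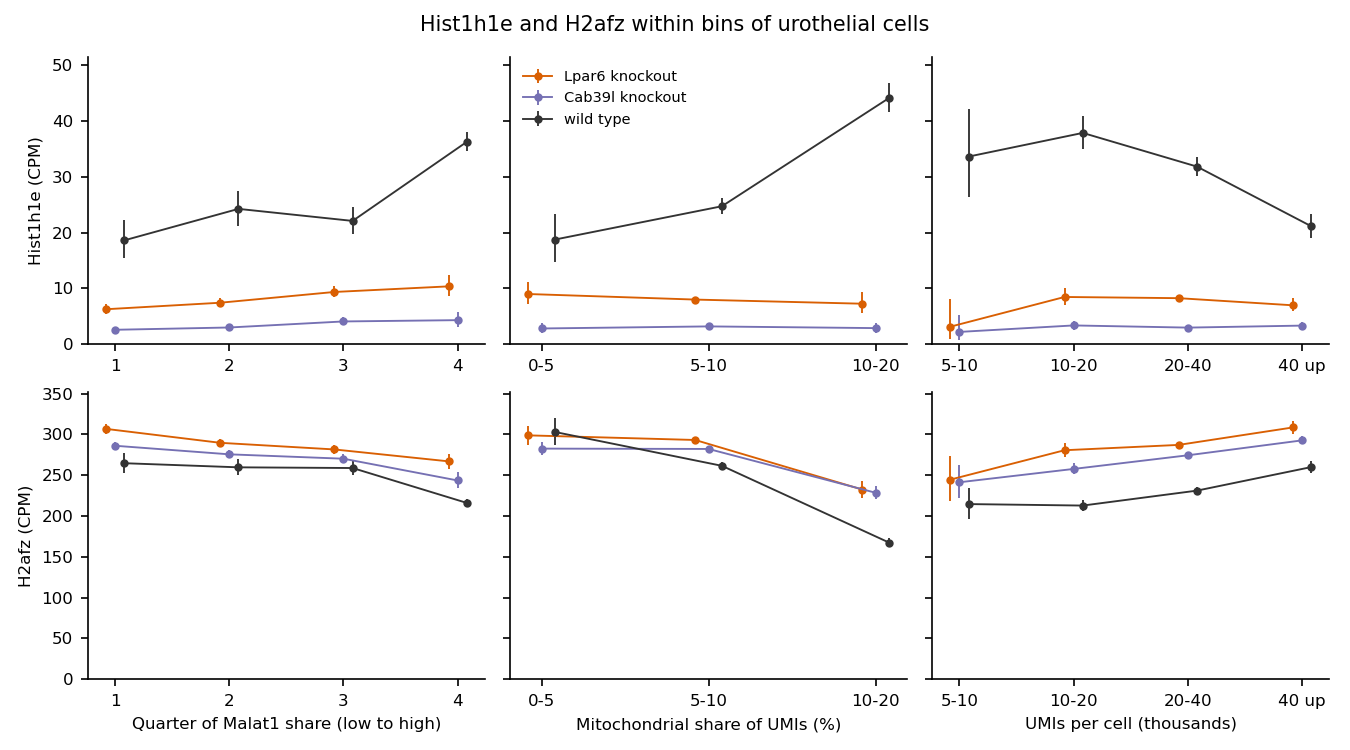
Level in CPM of Hist1h1e (top) and H2afz (bottom) in urothelial cells binned by Malat1 share, mitochondrial share and UMIs per cell, for the Lpar6 knockout (orange), Cab39l knockout (purple) and wild-type (black) libraries; bars are 95% Poisson intervals. Hist1h1e in wild type lies above both knockouts in every bin, while H2afz at up to 5% mitochondrial UMIs is 299, 283 and 303 CPM.

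Transcript length also moved with the ratios. All genes under 1000 bases had a median relative log2 ratio of 0.56 in Lpar6 KO and 0.51 in Cab39l KO, while histone genes of that length had medians of −0.39 (9 genes) and −0.47 (10 genes). From 1000 to 2000 bases the medians of all genes were 0.43 and 0.45, and those of the 13 histone genes were −0.37 and −0.64. From 2000 to 3000 bases, where 10 histone genes lie, the medians of the histone genes were 0.12 and 0.18 and those of all genes 0.14 and 0.18. With the length trend taken off, 1 member was past the fold on the higher side in Lpar6 KO and 2 in Cab39l KO, against 7.49% and 6.18% of all genes. On the lower side there were 18 of 34 members in Lpar6 KO and 17 of 35 in Cab39l KO, against 6.52% and 5.75% of all genes.

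Per cell, most urothelial cells held some clustered histone RNA. With every cell thinned to 5000 UMIs, 39.7% of Lpar6 KO cells and 37.2% of Cab39l KO cells had at least 1 clustered UMI, against 63.0% of wild-type cells, and without thinning the shares were 89.4%, 86.5% and 94.9% in that order. A replacement UMI was found in all cells after thinning. Hist1h1e was found in 3.91% of Lpar6 KO cells (3.38 to 4.50) and 1.34% of Cab39l KO cells (1.05 to 1.68), against 14.3% of wild-type cells (13.1 to 15.6), and without thinning in 18.6%, 8.54% and 46.6%. Hist1h2bc was found in 17.3% of Lpar6 KO cells and 16.8% of Cab39l KO cells, against 31.6% of wild-type cells. No cell type lacks histones, so no background share from free RNA can be set beside these values. Cells at the basal and umbrella ends (the top 20% of all cells for the summed markers of each) had like differences. Hist1h1e had 9.57 CPM in Lpar6 KO and 2.74 CPM in Cab39l KO, against 35.4 CPM in wild type, at the basal end, and 6.60 CPM in Lpar6 KO and 2.95 CPM in Cab39l KO, against 38.7 CPM in wild type, at the umbrella end.

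Immune cells were barcodes with at least 1000 UMIs in which immune markers reached 0.5% of UMIs and exceeded the uroplakins, 82 in Lpar6 KO, 304 in Cab39l KO and 661 in wild type. This class held cells that go against its name. The cells with as many lymphoid as myeloid marker UMIs numbered 8 in Lpar6 KO, 113 in Cab39l KO and 28 in wild type, and Cd52 alone made up 85.1%, 98.3% and 98.2% of their immune marker UMIs. Ptprc, the pan-leukocyte gene, had 2, 11 and 14 UMIs in them, and the epithelial gene Epcam had 186, 253 and 299 CPM. Secretory gland markers reached 30755 CPM in those of Cab39l KO. In Cab39l KO these cells held 450825 of the 1419396 UMIs of the class. The clustered sums and Hist1h2bc are therefore also given for the lymphoid and myeloid cells, which numbered 74, 191 and 633. Where lymphoid or myeloid cells are not named, immune values are for the whole class. This holds for the counts past the fold and for most single genes. Uroplakin levels in the class were 17.7%, 12.6% and 12.1% of those in urothelial cells of the same library.

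Clustered histone RNAs were higher in immune than in urothelial cells of each library. In Lpar6 KO they summed to 233 CPM (179 to 299) in immune cells, against 106 CPM in urothelial cells. In Cab39l KO the sums were 437 CPM (403 to 473) in immune cells and 98.6 CPM in urothelial cells, and in wild type 430.03 CPM (406 to 456) in immune cells and 203 CPM in urothelial cells. The log2 ratios of immune over urothelial cells were 1.14, 2.15 and 1.08. With lymphoid and myeloid cells alone the immune sums were 192, 259 and 379 CPM and the ratios 0.86, 1.39 and 0.90. Past the fold on the higher side were 12 of 17 clustered genes in Lpar6 KO, 18 of 21 in Cab39l KO and 18 of 21 in wild type, against 31.5%, 27.1% and 28.2% of all genes in the 3 libraries. In Lpar6 KO the clustered genes had 62 immune UMIs together, and 3 UMIs there are 11.3 CPM. Because 0.5 UMIs are added to each count, a gene with a low urothelial level can pass the fold there with 0 immune UMIs. The replacement gene H1fx did so, with a relative ratio of 0.92, so the count in Lpar6 KO is partly set by the rule. On the lower side were 0, 0 and 1 clustered genes, against 30.9%, 26.8% and 30.4% of all genes. For the same reason, a gene with a low urothelial level cannot pass the fold on the lower side in Lpar6 KO. The 0 of that library is therefore not a result about the clustered genes. Replacement genes summed to 4484 CPM in immune cells of Lpar6 KO, 4370 CPM in those of Cab39l KO and 5640 CPM in those of wild type, with log2 CPM ratios of 0.39, 0.35 and 0.84 over the urothelial cells. Relative to the median gene of each comparison, these ratios were 0.06, 0.26 and 0.93, and those of the clustered genes in the whole class were 0.80, 2.07 and 1.16. The 4 erythroid genes, all with UMIs in each library, summed to 86.5, 63.4 and 3411 CPM in the immune cells of Lpar6 KO, Cab39l KO and wild type, and in wild type they were at 2450 CPM in lymphoid and 4422 CPM in myeloid cells. Their part in the immune values was not tested.

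Hist1h2bc in the immune class was highest in the cells rich in Cd52. Those cells had 746 CPM of it in Lpar6 KO, 634 CPM in Cab39l KO and 860 CPM in wild type, and held 12 of the 17 Hist1h2bc UMIs of the class in Lpar6 KO, 286 of 344 in Cab39l KO and 167 of 399 in wild type. In lymphoid cells it had 8.41, 53.6 and 50.0 CPM (1, 27 and 49 UMIs) and in myeloid cells 30.6, 66.7 and 122 CPM (4, 31 and 183 UMIs). As point values, both lay below its urothelial level in Lpar6 KO and above it in Cab39l KO, and in wild type only the myeloid level was above it. With so few UMIs, the direction in Lpar6 KO and in lymphoid cells of Cab39l KO is within counting error. Hist3h2ba had the largest immune over urothelial ratio of the clustered genes in wild type, with 17.6 CPM in immune cells (47 UMIs), against 0.777 CPM in urothelial cells (22.7-fold higher, log2 interval 3.92 to 5.07). In Cab39l KO the largest clustered ratio was that of Hist1h1d, 2.82 CPM against 0.344 CPM, and rested on 4 immune UMIs (log2 interval 1.11 to 4.47). In Lpar6 KO it was that of Hist4h4, from 1 immune UMI, with a log2 interval of −2.22 to 5.65. Hist1h1e had 15.0 CPM in Lpar6 KO and 10.6 CPM in Cab39l KO immune cells, against 47.2 CPM in wild-type immune cells (4, 15 and 126 UMIs). The wild-type level was the highest, as in urothelial cells, and the order of the knockouts is within counting error. Hist1h1c had 48.9, 45.1 and 69.2 CPM in immune cells, above its urothelial level in each library. Of the replacement genes, H2afz had 617 CPM in immune cells of Lpar6 KO, 558 CPM in those of Cab39l KO and 874 CPM in those of wild type, and was the most raised in wild type (3.74-fold). H1fx had the largest ratio in Cab39l KO, 8.45 CPM in immune cells (12 UMIs), against 1.09 CPM in urothelial cells, and in Lpar6 KO it had 0 immune UMIs, so that H3f3a had the largest ratio among replacement genes with immune UMIs there (2.25-fold). H3f3a had 1772, 1719 and 2264 CPM in immune cells. H2afj was lower in immune cells, with 418 CPM in Lpar6 KO, 485 CPM in Cab39l KO and 449.9 CPM in wild type.

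**Figure D4:**
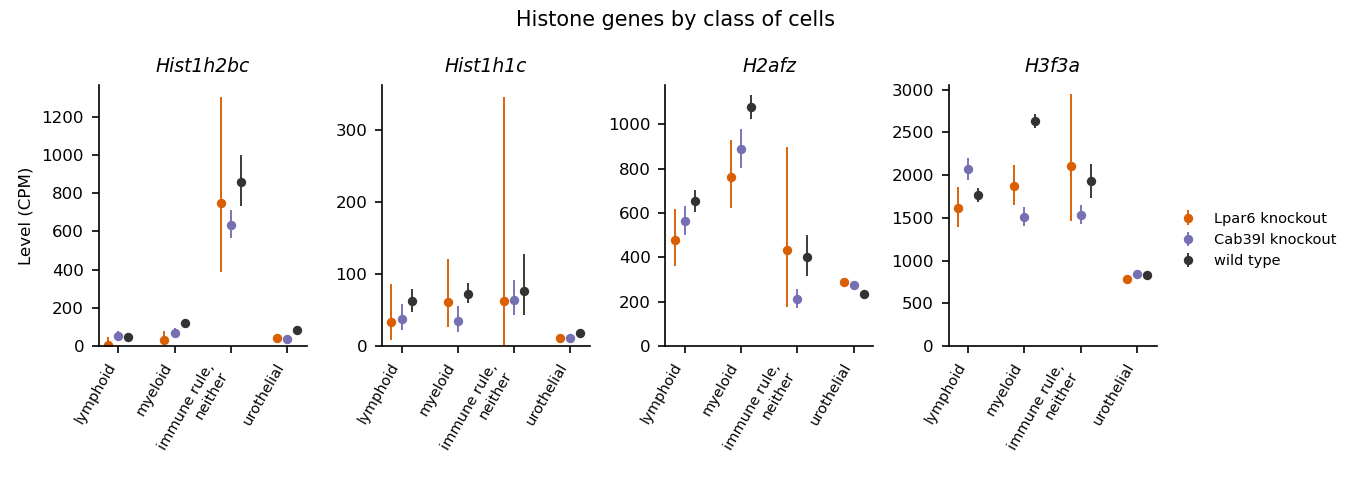
Level in CPM of Hist1h2bc, Hist1h1c, H2afz and H3f3a by class of cells for the Lpar6 knockout (orange), Cab39l knockout (purple) and wild-type (black) libraries; "immune rule, neither" are the cells of the immune class with as many lymphoid as myeloid marker UMIs, and bars are 95% Poisson intervals. Hist1h2bc is at 746, 634 and 860 CPM in those cells and under 130 CPM in the lymphoid, myeloid and urothelial cells.

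Few urothelial cells were flagged as dividing. After thinning, 5 cells of Lpar6 KO, 7 of Cab39l KO and 6 of wild type had UMIs of at least 2 mitosis genes. In the 7 cells of Cab39l KO, Hist1h2ap had 152 CPM, against 2.57 CPM in the other 5459 cells, and H2afz had 1500.3 CPM against 275 CPM. H2afx had 105 CPM in those 7 cells, against 9.09 CPM in the others. In the 5 cells of Lpar6 KO and the 6 of wild type, Hist1h2ap had 0 UMIs. Among immune cells with at least 2 mitosis genes, Hist1h2ap had 198 CPM in the 9 cells of Cab39l KO and 46.6 CPM in the 10 cells of wild type, against 3.82 and 1.17 CPM in the other immune cells. Without the cells with mitosis genes, Hist1h2ap was at 2.57 CPM in Cab39l KO and 1.25 CPM in wild type.

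Counts in lists of genes that act on histones and their mRNAs are read against the shares of all genes past the fold, 8.01% lower and 14.3% higher in Lpar6 KO and 9.29% lower and 13.2% higher in Cab39l KO. Of 12 genes for the processing and turnover of histone mRNA 3′ ends that were tested, 1 was lower and 1 higher past the fold in Lpar6 KO, and 2 were lower and 1 higher in Cab39l KO, with medians of −0.19 and −0.21. Lsm10, part of the U7 particle that directs the cut after the stem-loop, had 39.1 CPM in Lpar6 KO and 37.7 CPM in Cab39l KO, against 28.1 CPM in wild type (relative ratios 0.88 and 0.82). Sympk, a scaffold of the cleavage complex, had 12.3, 14.4 and 28.4 CPM in that order (relative ratios −0.81 and −0.59). Slbp, which encodes the protein that binds the stem-loop, had 20.9 CPM in Lpar6 KO and 24.7 CPM in Cab39l KO, against 22.4 CPM in wild type, and was not past the fold. Of 19 histone chaperones, 1 was lower and 2 higher in Lpar6 KO, and 2 were lower and 2 higher in Cab39l KO, with medians of 0.08 and 0.05. Atrx, which helps to place H3.3, had 118 CPM in Lpar6 KO and 102 CPM in Cab39l KO, against 238 CPM in wild type (relative ratios −0.62 and −0.83), and Asf1b, a chaperone of dividing cells, was at 0.75 and 0.59. Of 11 genes of H2A.Z exchange, 0 were past the fold in Lpar6 KO and 1, Srcap, was lower in Cab39l KO (−0.61). Of 7 HMG chromatin protein genes, 0 were lower and 1 higher in Lpar6 KO and 0 lower and 3 higher in Cab39l KO. Hmgn1 was higher in both, with 459 CPM in Lpar6 KO and 478 CPM in Cab39l KO, against 365 CPM in wild type. Hmga1 (relative ratio 0.90) and Hmgn2 (0.63) were higher in Cab39l KO, and were at 0.11 and 0.01 in Lpar6 KO. The replication genes had 2 of 21 lower in Lpar6 KO, Mcm6 (−1.83) and Ccne2 (−1.79), and 1 of 21 higher in Cab39l KO, Cdc45 (0.82). Mitosis genes had 9 of 14 higher in Cab39l KO, with a median of 0.75, led by Ube2c (19, 172 and 7 UMIs) and Cdk1 (0, 72 and 4 UMIs), and in Lpar6 KO 1 of 8 lower and 0 higher. Markers of other cells differed between the urothelial pools as well, with erythroid genes at 149, 66.2 and 308 CPM, secretory gland genes at 2.56, 313 and 11.7 CPM and immune genes at 6.04, 28.4 and 44.1 CPM in Lpar6 KO, Cab39l KO and wild type, and their part in the histone differences was not tested.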

How the data were processed

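The deposited files hold raw counts (UMIs) per gene and cell barcode, 1 matrix per library, made by the authors with Cell Ranger 3.0.2 on mm10 per the submitters' processing notes. The annotation release and the counting settings are not given in the sources used here. Barcodes numbered 8293, 9406 and 8085 for Lpar6 knockout, Cab39l knockout and wild type. Gene models came from GENCODE vM21, which held 30934 of the 31053 gene identifiers.

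UMIs were summed per library and cell class and scaled to CPM. Ratios are log2 of (UMIs + 0.5) over the totals, for genes with at least 50 UMIs over both libraries, with and without centring on the median gene. A fold of 1.5 after centring is a rule of size, not a test. Levels carry exact Poisson intervals, and ratios and shares carry exact binomial (Clopper-Pearson) intervals. Depth sets the precision, which is lowest for the 82 immune cells of Lpar6 knockout. Scrublet in scanpy 1.11.5 marked 32 of 16962 cells (0.189%) as doublets, which is too few to use, so doublets were kept and the top 6% of scores were left out as an alternative. On simulated counts, genes changed 1.5-fold, the size of the rule, passed it in 50.7% of cases for Lpar6 knockout over wild type (12926 genes) and 41.1% for Cab39l knockout over wild type (13052 genes). Genes changed 2-fold passed it in 95.5% and 95.9%, and unchanged genes in 0.644% and 0.910%. The simulated counts held counting error only, with no difference between libraries in quality or length trend. These shares are therefore not error rates of the rule in the real libraries.

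Levels were computed for every member with at least 100 UMIs. Described in full were those past the fold in either knockout, the 3 highest of each class, and those with the largest immune over urothelial ratio. From each list of related genes, some of the most changed are named. Alternatives changed the cell filters, doublets, depth, scaling, length trend, low-count filter, pseudocount and immune rule. The members and lists were chosen with earlier results of these data known. Python 3.11.15, numpy 2.4.6, scipy 1.17.1 and pandas 2.3.3 were used.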

Additional observations from a re-analysis of the deposited data

How the results depend on the processing

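Each library is 1 pool of mice, so differences between groups may be differences between libraries, and counting intervals do not cover this. No paired analysis was possible because each group has 1 library, and for the same reason no replicate could be left out. The past-the-fold calls of Hist1h1e and Hist1h2bc in both knockouts, Hist2h3c1 in Lpar6 knockout, and Hist1h4d, Hist2h2ac, Hist1h4h and Hist1h2ap in Cab39l knockout held under 13 of 13 alternatives, and that of Hist2h2aa1 in Cab39l knockout under 12 of 12. The higher calls of H2afj, H2afz, H2afv and H2afx in both knockouts, Hist1h4i in Lpar6 knockout and H1fx in Cab39l knockout were lost with at most 10% mitochondrial UMIs, without centring, and with the length trend taken off, and that of Hist4h4 in Lpar6 knockout under the first 2 of these and with a pseudocount of 1 CPM. The lower call of Hist1h3e in Lpar6 knockout held under 5 of 12 alternatives, that of H3f3aos there under 8 of 13, and those of Hist3h2ba and Hist1h3f there and of Hist1h3f and Hist2h3c2 in Cab39l knockout under 8 of 11. Without centring, every ratio moves down by the median gene's log2 CPM ratio, −0.40 in Lpar6 knockout and −0.39 in Cab39l knockout. No lower call can be lost under that alternative, and a higher call that passes the fold by less than this shift must be lost. The cause of the other losses was not tested.

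Counts past the fold are given with the members tested and, in brackets, the share of all genes. For Lpar6 knockout over wild type, the lower side held 12 of 34 (8.01%), against 7 of 22 with thinned cells (9.12%), 19 of 34 without centring (35.6%), 22 of 63 with no filter on low counts (17.6%), 6 of 24 with at least 200 UMIs (6.06%) and 3 of 34 with a pseudocount of 1 CPM (5.49%). The higher side held 6 of 34 (14.3%), against 0 of 34 with at most 10% mitochondrial UMIs (8.08%), 0 of 34 without centring (2.83%), 1 of 34 with the length trend taken off (7.49%), 14 of 63 with no filter (21%) and 3 of 34 with the pseudocount (7.67%). For Cab39l knockout over wild type, the lower side held 14 of 35 (9.29%), against 9 of 25 with thinned cells (10.7%), 25 of 67 with no filter (19.8%), 9 of 27 with at least 200 UMIs (7.93%) and 5 of 35 with the pseudocount (7.55%). The higher side held 7 of 35 (13.2%), against 2 of 34 with at most 10% mitochondrial UMIs (6.19%), 2 of 35 without centring (1.95%), 2 of 35 with the length trend taken off (6.18%), 21 of 67 with no filter (20.6%) and 3 of 35 with the pseudocount (5.47%). The pseudocount turned Hist1h3f in Lpar6 knockout to 0.0097 relative to the median gene.

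The clustered log2 CPM ratio was −0.88 and −0.97 (Lpar6 and Cab39l knockout over wild type) with at most 10% mitochondrial UMIs, −0.98 and −1.11 with thinned cells, −0.54 and −0.65 when centred, −0.52 and −0.64 with TMM scaling, and −0.51 and −0.62 with median-of-ratios scaling. Alternatives chosen after seeing the data gave −0.82 and −0.86 without Hist1h1e, −0.87 and −0.99 without Hist1h2bc, and −0.56 and −0.42 without these and Hist1h4d. The replacement ratio was 0.0238 and 0.0404 with at most 10% mitochondrial UMIs, 0.14 and 0.15 with thinned cells, 0.16 and 0.16 with cells weighted equally, 0.52 and 0.52 when centred, 0.54 and 0.54 with TMM scaling, and 0.55 and 0.56 with median-of-ratios scaling.

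For immune over urothelial cells, the clustered ratio was 0.43, 1.73 and 0.65 (Lpar6 knockout, Cab39l knockout and wild type) with lymphoid cells alone. It was 2.02 in Cab39l knockout with immune markers at 1% of UMIs. With uroplakin-scaled free RNA taken off it was 2.30 in Cab39l knockout and 1.18 in wild type. With lymphoid and myeloid cells alone, an alternative chosen after seeing the data, it was 1.39 in Cab39l knockout and 0.90 in wild type. The replacement ratio was 0.21, 0.41 and 0.53 with lymphoid cells alone. With immune markers at 1% it was 0.58 in Lpar6 knockout and 0.95 in wild type. It was 0.39 in Cab39l knockout and 0.93 in wild type with free RNA taken off, and 0.40 in Cab39l knockout with lymphoid and myeloid cells alone.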

Other observations

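Cells left out for a mitochondrial share above 20% showed the same order of Hist1h1e, at 4.28 CPM in Lpar6 knockout and 1.99 CPM in Cab39l knockout, against 33.4 CPM in wild type. Their replacement histone sums were 1719 CPM in Lpar6 knockout and 1806 CPM in Cab39l knockout, against 1406 CPM in wild type, below the sums of the kept cells in each library. H1f0, the linker histone of differentiated cells, had 18.1 CPM in Lpar6 knockout and 19.9 CPM in Cab39l knockout, against 35.5 CPM in wild type, in the same cells.

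Among urothelial cells with UMIs of at least 3 replication genes, 66 in Lpar6 knockout, 87 in Cab39l knockout and 93 in wild type, Hist1h2ap had 0, 19.3 and 0.49 CPM in that order. The remaining cells had 0.79 CPM in Lpar6 knockout and 2.60 CPM in Cab39l knockout, against 1.27 CPM in wild type. Clustered histone sums in cells with replication genes were 86.2 CPM in Lpar6 knockout and 119 CPM in Cab39l knockout, against 198 CPM in wild type.

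Hist2h2aa1, counted at 0 and 1.03 CPM in lymphoid and myeloid cells of Lpar6 knockout and Cab39l knockout and at 3.23 CPM in those of wild type, had 28.8 CPM in the Cd52-rich cells of Cab39l knockout (113 cells) and 20.6 CPM in those of wild type (28 cells).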
